A study of Mus musculus with 2 samples.

Results

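Melanotrophs are the endocrine cells of the intermediate lobe of the pituitary, and 299 barcodes of 13613 that passed the quality limits were taken as melanotrophs here. A barcode stands for a cell captured in a droplet, and a UMI (unique molecular identifier) for 1 captured RNA molecule. A member had at least 2% of its UMIs from Pomc, 1 or more UMIs from Pax7 and Oacyl together, at most 1 UMI of Pou1f1, Cga below 2000 UMIs per 1000000 and at most 2 UMIs of Col1a1 and Col3a1 together. The quality limits were 1000 or more genes detected and at most 10% of UMIs from mitochondrially encoded genes. The male library held 199 members of 8009 barcodes within these limits and the female library 100 of 5604. Those 7 genes and every comparison of the members with other barcodes of the same libraries chose or follow from the choice of members, so the levels below are a description and carry no test.

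The cells came from mouse pituitaries at postnatal day 3, carrying the genotype Sox9iresGFP/+, in which 1 Sox9 allele also makes GFP. GFP-positive cells were sorted, with 3 male pituitaries behind the male library and 3 female pituitaries behind the female library, and both groups carry the same allele and no other treatment. The reporter protein is stable, so the sorted fraction is not limited to cells that still make SOX9, and shares of barcodes given here are shares of that fraction. With 1 library per sex there is no replicate, so sex, litter, capture and sequencing cannot be told apart.

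Melanotrophs make proopiomelanocortin (POMC) and cut it further than the corticotrophs of the anterior lobe do. Corticotrophs cut POMC mainly with prohormone convertase 1 (Pcsk1) to the stress hormone ACTH, while melanotrophs also use prohormone convertase 2 (Pcsk2), and the product is alpha-MSH, which is trimmed by carboxypeptidase E (Cpe) and amidated by the enzyme PAM. Both cell types need the T-box factor TPIT (Tbx19), and the pioneer factor PAX7 sets the melanotroph program apart. Dopamine from the hypothalamus holds melanotrophs in check through the D2 receptor (Drd2).

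The 5 markers of the label were found in the members of both libraries. Levels are given as CPM, a gene's UMIs per 1000000 UMIs of the group of barcodes. In the male members Pomc stood at 264165 CPM (95% limits 263697 to 264634), Pax7 at 172 (161 to 185), Oacyl at 682 (658 to 706), Pcsk2 at 1461 (1427 to 1497) and Tbx19 at 47.7 (41.7 to 54.5). The female members had Pomc at 147273 (146714 to 147834), Pax7 at 236 (214 to 259.8), Oacyl at 699.6 (662 to 739), Pcsk2 at 1966 (1902 to 2032) and Tbx19 at 81.9 (69.3 to 96.2). These limits, like all limits below, are exact and cover counting error only. Pcsk2 and Tbx19 were not part of the rule. Pax7 and Oacyl UMIs occurred in the same barcode in 160 of the 199 male and 84 of the 100 female members, while 17 male and 5 female members entered on a single UMI of either gene.

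Markers of other cell types were low in the members, which in part follows from the rule. The rule limits Pou1f1, Cga, Col1a1 and Col3a1, and the endocrine and collagen barcodes set against the members were picked by these same genes. The immune and erythroid lists hold no gene of the rule. Summed over 6 markers of the POU1F1 lineage, the level was 32.8 CPM in the male and 31.5 in the female members, against 10154 and 25926 in other endocrine barcodes, and Gh made up 28.7 and 31.5 of it. The 9 gonadotroph markers summed to 51.6 and 7.75 CPM, of which Cga made up 44.7 and 6.64. Over the 10 mesenchymal and pericyte markers the sums were 10.8 and 7.19 CPM, against 13619 and 16569 in barcodes with 20 or more collagen UMIs. Immune markers summed to 1.73 and 2.77 CPM, with Ptprc at 0 UMIs in both libraries, and erythroid markers to 0.648 and 2.21. Stem cell markers were not at 0 and are given below.

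The members made up 2.48% (95% limits 2.15 to 2.85) of the barcodes within limits in the male library and 1.78% (1.45 to 2.17) in the female library. The ratio was 1.39, and the limits of the shares overlap. Members were deeply captured, with a median of 21893 UMIs and 4375 genes in the male library and 16268 UMIs and 4080 genes in the female one. The shallowest member had 2008 UMIs in the male library and 6565 in the female library. Barcodes of both libraries within limits had medians of 11108 and 9892 UMIs. The libraries share 19 barcode sequences, of which 1 is a female member. The gene Xist stood at 0.216 CPM (male) and at 799.7 (female) in the members, and 4 Y-linked genes had no UMI in the female members.

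Free Pomc RNA was present in both libraries. Barcodes with 1 or more Sox2 UMIs that were not members had a Pomc level of 1389 CPM (1380 to 1397, male) and 458 (452 to 463, female). Most of these UMIs sat in 55 male and 10 female barcodes with Pomc at 2% or more, and the barcodes below 2% held 204 and 111 CPM. After each barcode was thinned to 5000 UMIs, a Pomc UMI was seen in 52% of the male and 19.2% of the female Sox2 barcodes, and without thinning in 79.5% and 34.3%. In collagen barcodes, which should lack Pomc, the thinned shares were 53.2% and 11.2%. Median depth was 11349 and 9907 UMIs in the Sox2 barcodes and 9051 and 8460 in the collagen barcodes. A single Pomc UMI in a barcode therefore reads as background. The limit of 2% lies above the 99th percentile of the Pomc share in these Sox2 barcodes, which was 1.69% (male) and 0.0893% (female). Members had been taken out of these barcodes, and 125 of 199 male and 73 of 100 female members held a Sox2 UMI. The percentile therefore follows in part from the rule and does not test the limit.

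The Pomc share differed widely between single melanotrophs. In the male library it ran from 2.03% to 48.8% of UMIs with a median of 22.5%, and in the female library from 2.12% to 48.4% with a median of 7.93%. The 2 libraries overlap over nearly the whole range, but the members are placed differently in it. In the male library 43 members had Pomc under 10%, 46 from 10 to 20% and 110 at 20% or more, and in the female library 61, 20 and 19. Just inside the limit, between 2 and 3%, lay 3 male and 5 female members, and 3 male and 9 female barcodes between 1 and 2% met all other limits. In CPM without Pomc, Sox2 was at 181 and 289 in the former and at 488 and 373 in the latter, in the male and female library respectively.

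**Figure D1:**
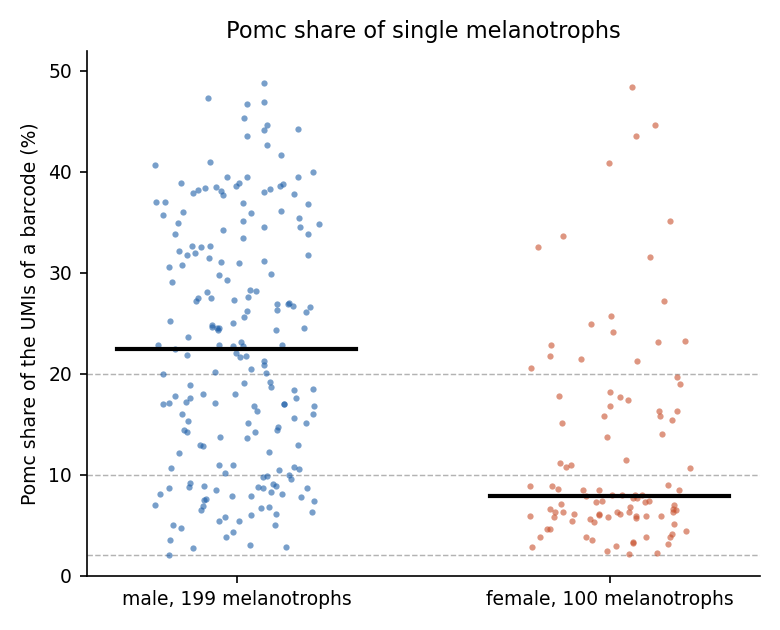
Pomc share of the UMIs (percent) of each of the 199 male and 100 female melanotrophs, 1 point per barcode, with the median as a black bar and dashed lines at 2, 10 and 20%. The male members spread over the whole range around 22.5%, while most female members sit under 10%.

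Pomc RNA took up so many of the UMIs that CPM values of all other genes are lowered by it. Over the 3183 genes at 50 CPM or more in the members or in the other barcodes of each library, the median log2 ratio of members to others was -0.44 in the male library and -0.16 in the female one. Scaled to UMIs other than Pomc (CPM without Pomc) it moved by 0.44 and 0.23 for the same genes. Of the 3183 genes, 164 (5.15%) were at least 2-fold higher in the members in both libraries and 343 (10.8%) at least 2-fold lower. Of the same genes 256 were higher and 256 lower in CPM without Pomc, and 244 and 263 with a median of ratios. With the limit of 50 also set in CPM without Pomc, 3434 genes were counted, and 314 and 256 were higher and lower. Directions of gene groups below hold on all 3 scales unless stated.

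Genes of POMC processing were high in the members. Of 9 genes on this list, 6 reached the level needed for counting and 5 were at least 2-fold higher than in all other barcodes in both libraries, namely Cpe, Pam, Pcsk1n, Pcsk2 and Scg5, with a list median log2 ratio of 2.71 in the male library and 2.32 in the female one. Pcsk2 was 184-fold higher (171 to 199) in the male library and 394-fold higher (350 to 444) in the female one. Scg5, which encodes the PC2 chaperone 7B2, stood at 867 and 587 CPM in the male and female members. Cpe stood at 529 and 470.4, and Pam at 357 and 242. Pcsk1, the convertase of corticotrophs, had 108 UMIs in the male members (23.3 CPM) and 12 in the female members (6.64 CPM). That is below the level needed for counting, but all other barcodes held 1.95 (male) and 2.09 (female) CPM. In members with Pomc at 30% or more it was at 51.0 and 38.0 CPM without Pomc. Furin and Prcp stayed under the level needed for counting, at 12.7 CPM or less in the members. Ctsl, a cathepsin, passed the level and was 2-fold different in neither direction.

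Pcsk2 varied from barcode to barcode as Pomc did. At least 1 Pcsk2 UMI was found in 186 male and 98 female members, with medians of 28 and 24 UMIs and highest values of 176 and 157. After thinning to 5000 UMIs, 92.1% of the 178 male and 93.0% of the 100 female members kept a Pcsk2 UMI. In Sox2 barcodes the thinned shares were 0.795% and 1.19%, and in collagen barcodes 0.198% of the male and 0 of 276 female barcodes, where 3 barcodes would be 1.09%.

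Transcription factors of the pituitary divided into groups. Of 15 on the list, 11 were counted, and Pax7 and Nr4a2 were at least 2-fold higher in the members. Nr4a2, an orphan nuclear receptor of the NUR77 family, stood at 87.1 (78.8 to 96.0) and 78.6 (66.2 to 92.6) CPM. Tbx19 was rare elsewhere, at 1.07 and 1.13 CPM over all other barcodes. Pitx1, Isl1, Lhx3, Neurod1 and Nr4a1 were among those at least 2-fold lower, Nr4a1 not on the other 2 scales. Pitx1, a homeobox factor of all anterior pituitary cells, was present at 73.2 CPM (male) and 73.6 (female) in the members. Neurod1, a basic helix-loop-helix factor that takes part in Pomc transcription in corticotrophs, had 31 UMIs in the male members (6.70 CPM) and 0 in the female members, where 3 UMIs would be 1.66 CPM.

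Genes of the secretory machinery were high in the members as well. Of 27 genes for granule proteins and exocytosis, 17 were counted, 15 were at least 2-fold higher in the members in both libraries and none lower, with median log2 ratios of 2.10 and 2.78. Chga, the granule protein chromogranin A, was at 2187 (2145 to 2230) CPM (male) and 2001 (1936 to 2067) (female) in the members. Resp18, a protein of the granule lumen, stood at 1845 and 909. Syt1 and Snap25, parts of the calcium-triggered fusion machinery, reached 641 and 175 CPM (male) and 930.4 and 201 (female) in the members. In the endoplasmic reticulum list, 19 of 22 genes were counted and only Sdf2l1 and Ssr4 were 2-fold higher, though 8 and 7 were on the other scales.

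The genes that stood out most from all other barcodes, leaving out those of the rule, were Esm1, Ppp1r17, Samd3, Pcsk2, Vgf, Gal, Gm17660, Resp18, Drd2, Eef1a2, Tmem158, Caly, Nap1l5, Gfra4, Calb1, Alcam, Ptprn, Cryba2, Pkib and Gria2. Esm1, which encodes the secreted proteoglycan endocan, was at 197 CPM (185 to 210) (male) and 198 (178 to 220) (female) in the members, and at 0.750 and 0.296 in all other barcodes. That is a fold of 263 (207 to 338) and 670 (418 to 1144). Ppp1r17, an inhibitor of protein phosphatases, was 246-fold higher (160 to 394) in the male library and 789-fold (375 to 1994) in the female one. Samd3 was 188-fold higher in the male library (139.5 to 259). Its female ratio rests on 1 UMI outside the members and is only bounded from below at 1063-fold.

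Receptors and peptide precursors are among these 20. Drd2, the receptor through which dopamine acts on melanotrophs, stood at 73.7 (66.1 to 81.9) and 62.5 (51.5 to 75.2) CPM against 1.27 and 0.345 in all other barcodes. The peptide precursors Vgf and Gal were at 123 and 410 CPM (male) and at 58.7 and 165 (female) in the members, 115-fold and 115-fold above the others in the male library and 179-fold and 359-fold in the female one. Gria2 encodes a glutamate receptor subunit, Gfra4 a receptor subunit for a ligand of the GDNF family, and Alcam a cell adhesion molecule that was 17.0-fold higher in the male library and 19.5-fold in the female one. Eef1a2, a translation elongation factor, was 44.4-fold and 95.4-fold higher. The smallest of the 40 ratios behind these genes was 14.6.

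**Figure D2:**
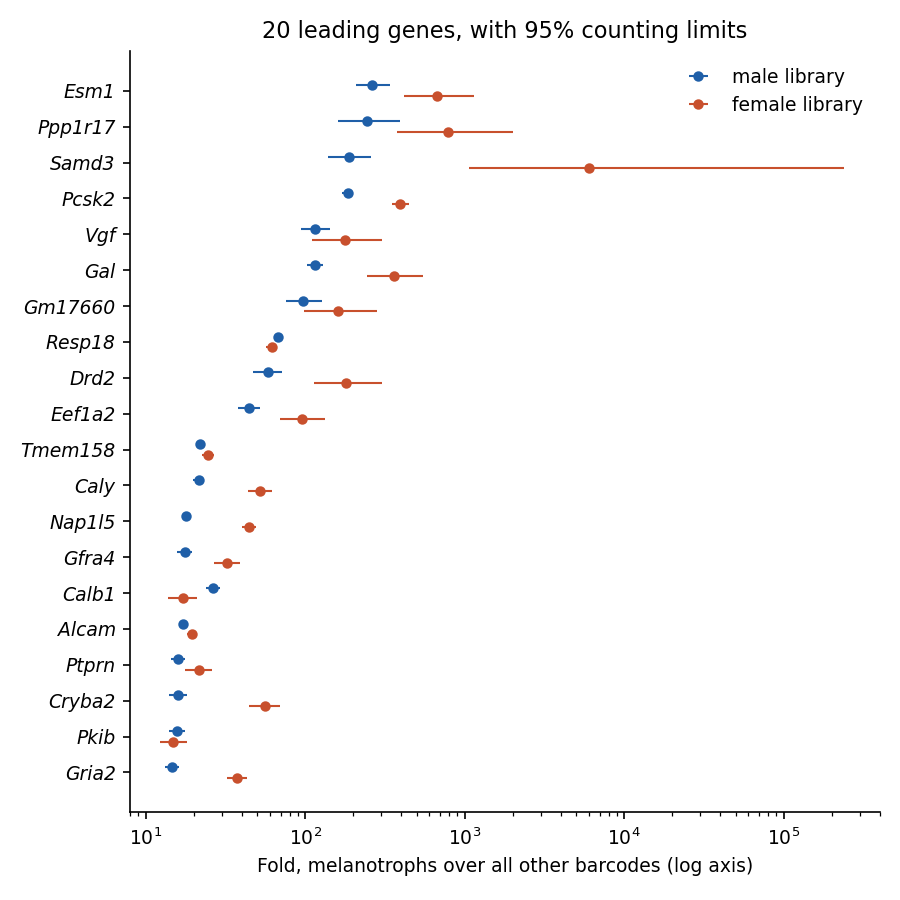
Ratio of the level in CPM in melanotrophs to that in all other barcodes within limits, for the 20 leading genes outside the rule, on a log axis with 95% counting limits for the male (blue) and female (orange) library. All points lie above 14-fold in both libraries, and the widest limits belong to Samd3 in the female library, with 1 UMI outside the members.

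Against other endocrine barcodes, meaning 1838 male and 401 female barcodes with 2 or more Pou1f1 UMIs or with Cga at 2000 CPM or more and Pomc under 2%, 92 of 3100 genes (2.97%) were at least 2-fold higher in the members and 159 (5.13%) lower. In CPM without Pomc 135 and 113 of the same genes were, and 166 and 114 of the 3312 counted on that scale. The leading 10 were Samd3, Esm1, Pcsk2, Gm17660, Gal, Ppp1r17, Vgf, Tmem158, Alcam and Eef1a2. Pcsk2 was 305-fold higher (255 to 367) in the male library and 308-fold (222 to 441) in the female one. Gal was 267-fold (195 to 375) and 116-fold (58.3 to 272) higher. The secretion list separated less here, with 6 of 18 counted genes at least 2-fold higher, 1 lower and median log2 ratios of 0.55 and 0.48. The 6 were Chga, Ptprn, Resp18, Snap25, Syt1 and Vgf, and the lower one was Scgn, the calcium sensor secretagogin. Chgb and Scg3, which were among the genes above all other barcodes, stayed within 2-fold of the other endocrine barcodes.

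A second group of Pomc cells lacked UMIs of Pax7 and Oacyl. It held 42 male and 18 female barcodes with Pomc at 2% or more that met all other limits, at median depths of 11916 and 10610 UMIs. The lower quartile of depth was 2639 (male) and 9301 (female) UMIs, against 14142 and 12992 in the members. Pax7 and Oacyl UMIs can be missed in shallow barcodes, so some of the group may be melanotrophs, which was not tested. The Pomc level of the group was 75290 CPM in the male library and 65092 in the female one. The 8 genes of the list of corticotroph receptors and regulators summed to 327 and 435 CPM in these barcodes, against 22 and 11.1 in the members. Crhr1, the receptor for corticotropin-releasing hormone, was at 47.3 (30.3 to 70.4) and 70.0 (38.3 to 117) CPM there and had 1 UMI (male) and 0 (female) in the members. Avpr1b, the vasopressin receptor of corticotrophs, had 2 and 3 UMIs there and 0 in all 299 members, where 3 UMIs would be 0.648 (male) and 1.66 (female) CPM. Nr3c1, the glucocorticoid receptor, was at 179 and 180.1 CPM there and at 10.2 (7.46 to 13.5) and 3.87 (1.56 to 7.98) in the members.

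Pcsk2 was 26.5-fold higher (18.3 to 39.9) in the members than in this group in the male library and 56.2-fold higher (27.2 to 140) in the female library. Of 2909 genes counted, 63 (2.17%) were at least 2-fold higher in the members in both libraries and 132 (4.54%) lower, or 90 and 83 of the same genes in CPM without Pomc and 115 and 88 of the 3271 counted on that scale. Alcam, Krt7, Rtn1, Enc1, Fam46a, Fxyd6 and Chga were among the 15 leading genes on the higher side, next to Pcsk2, Gal, Gm17660, Vgf, Samd3, Ppp1r17, Esm1 and Tmem158. Chga was 4.74-fold (4.17 to 5.42) and 4.26-fold (3.47 to 5.28) higher. On the lower side stood Cntnap2, Neurod1, Rasd1, Ddit4l, Nr3c1 and Cebpd. Rasd1, a small G protein induced by glucocorticoids, was at 6.70 and 7.19 CPM in the members and at 138 and 385 in the other Pomc barcodes. The other 5 counted processing genes stayed within 2-fold of this group in at least 1 library, with Pam at 1.83-fold (1.49 to 2.27) in the male library and 0.969-fold (0.722 to 1.33) in the female one. Tbx19 was at 101 (74.8 to 132) and 125 (80.9 to 185) CPM there, and the members had 0.475 (0.349 to 0.657) of that level in the male library and 0.655 (0.427 to 1.05) in the female one, where the limits include 1.

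Neurod1 was among the counted transcription factors of the list that were lower in the members than in this group, at 139.9 (109 to 176) and 160.1 (109 to 226) CPM in the barcodes without Pax7 and Oacyl. The sequence 250 bases upstream of the Pomc start is printed here because an E-box of the kind bound by NEUROD1 dimers lies in it. It was taken from RefSeq for the build GRCm38.p6, chr12:3954695-3954944, plus strand, and capitals mark the only match to CATCTG on either strand.
Pomc upstream: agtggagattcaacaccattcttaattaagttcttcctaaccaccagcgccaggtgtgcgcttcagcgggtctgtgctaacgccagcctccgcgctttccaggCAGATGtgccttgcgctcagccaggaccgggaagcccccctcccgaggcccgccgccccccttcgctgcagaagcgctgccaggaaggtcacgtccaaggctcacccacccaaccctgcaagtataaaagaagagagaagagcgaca
The same letters occur in 14.5% of the 27025 upstream windows of this length in the table. The T-box letters TCACACC and the PITX1 letters TAATCC, searched on both strands, occur in 3.31% and 6.38% of all windows and not in this one. Of the 20 leading genes 16 had a window, and the E-box letters were found in those of Esm1 and Gfra4, the T-box letters in those of Caly and Samd3, and the PITX1 letters in that of Esm1. A match is a description of the letters and shows no binding. Bases further upstream were not searched, and a window without a match can have sites there.

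**Figure D3:**
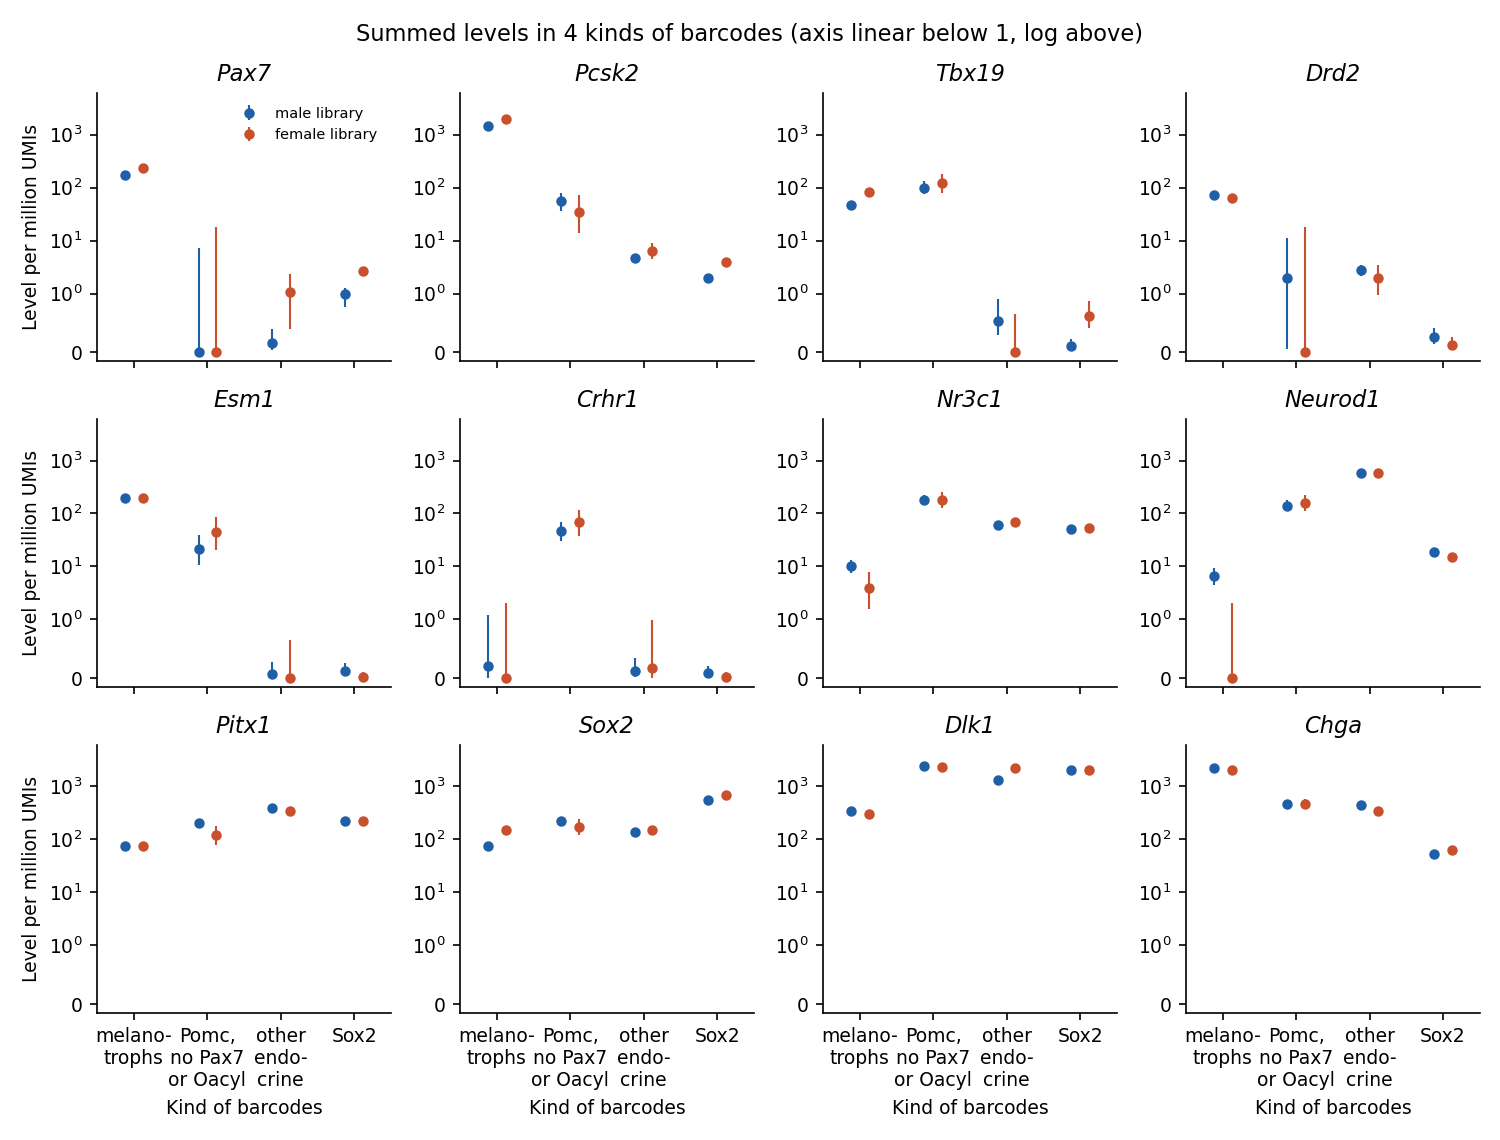
Summed level in CPM of 12 genes in melanotrophs, in Pomc barcodes without Pax7 or Oacyl UMIs, in other endocrine barcodes and in Sox2 barcodes of no other class, with 95% counting limits for the male (blue) and female (orange) library. The axis is linear below 1 and logarithmic above, Pcsk2, Drd2 and Esm1 are highest in the melanotrophs, and Crhr1, Nr3c1 and Neurod1 are low there and high in the other Pomc barcodes.

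The genes lowest in the members against all other barcodes were Dcn, Igfbp7, Gh, Sparc, Col1a2, Itih5, Islr, Rbm24, Neurod1 and Slc27a2. Dcn, Igfbp7, Sparc, Col1a2 and Islr are genes of connective tissue cells, which the collagen limit of the rule kept out, and Gh is the product of somatotrophs. Dcn was at 1.51 and 1.11 CPM in the members and at 304 and 285 in the other barcodes. Rbm24, an RNA-binding protein, was at 2.81 and 2.21 CPM against 73.3 and 57.7.

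Stem cell genes were lower but not absent. All 8 counted genes of the 16 on the stem cell list were at least 2-fold lower in the members than in all other barcodes in both libraries (Aldh1a2, Aldoc, Hes1, Krt18, Krt8, S100a6, Sox2 and Sox9), Krt8 not on the other 2 scales. Sox2 nevertheless had 350 UMIs in the male members, or 75.6 CPM (67.9 to 84.0), and 268 in the female members, or 148 CPM (131 to 167). A Sox2 UMI was left after thinning in 29.8% of the male members (95% limits 23.2 to 37.1) and in 51.0% of the female members (40.8 to 61.1), against 62.8% and 73.0% without thinning. Collagen barcodes, which should lack Sox2, had thinned shares of 10.5% and 7.97% at median depths of 9051 and 8460 UMIs, below the limits of both libraries' members. Other endocrine barcodes had 28.2% and 32.8%. Sox9 was at 9.07 and 27.1 CPM in the members, with thinned shares of 6.18% and 12% against 17.2% and 18.1% in collagen barcodes. Since the sort was made on a Sox9 reporter, no class here was taken as one that should lack Sox9. Against Sox2 barcodes with Pomc under 2% that met the limits on Pou1f1, Cga and collagen, 218 of 3196 genes (6.82%) were at least 2-fold higher in the members and 420 (13.1%) lower. With Pomc left out of the scaling 308 and 307 of the same genes were, and 382 and 307 of the 3465 counted on that scale. All 9 counted stem cell genes were lower, and for Sox2 this follows in part from the choice of the compared barcodes. The reporter eGFP had 13 UMIs (male) and 1 (female) in the members, 2.81 (1.5 to 4.80) and 0.553 (0.0140 to 3.08) CPM, against 19.3 and 13.3 CPM in Sox2 barcodes. Lef1 and Dlk1, from a list of differentiating cells, were at 1.30 and 347 CPM (male) and 2.21 and 303 (female) in the members, and Dlk1 was at least 2-fold lower than in all other barcodes. Of 11 counted immediate early genes, 8 were at least 2-fold lower in the members than in all others, but only Atf3, Fosb, Jun and Zfp36 on the other scales. None of the 12 counted mitochondrially encoded genes and none of the 5 counted proliferation genes differed by 2-fold in both libraries.

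Some genes differed within the members between high and low Pomc share. The comparison was chosen after seeing the values, and it sets members with Pomc at 20% or more of UMIs (110 male, 19 female) against members under 10% (43 male, 61 female), in CPM without Pomc. Of 3279 genes counted, 152 (4.64%) were at least 2-fold higher at high Pomc share in both libraries, 68 (2.07%) were lower and 3059 were neither. Median depth also differed, with 28570 and 24700 UMIs at high and 13850 and 14218 at low Pomc share in the male and female library, and its part in the result was not tested. The median log2 ratio of all genes was -0.01 and 0.00.

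Of the 152 genes that were higher at high Pomc share, 6 are on the processing list and 10 on the list of granule and exocytosis genes. All 6 counted processing genes were at least 2-fold higher in both libraries (Cpe, Ctsl, Pam, Pcsk1n, Pcsk2 and Scg5), and so were 10 of 20 counted granule and exocytosis genes with none lower. Pam, whose enzyme amidates alpha-MSH, went from 56.2 to 656 CPM in the male members, a fold of 11.7 (8.19 to 17.3), and from 59.2 to 643 in the female members, a fold of 10.9 (7.95 to 15.1). Gal was at 5.44 and 14.2 CPM in low members and at 852 and 762 in high members. Vgf was at 5.44 and 2.37 CPM in low and at 238 and 223 in high members. Resp18 was 11.8-fold (10.1 to 13.8) and 21.0-fold (17.3 to 25.6) higher. Gpx3 and Fkbp11 had 0 UMIs in the low male members, and are at least 32.1-fold and 39.8-fold higher against a floor of 3 UMIs over the group. The receptor gene Drd2 was also on this side.

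Nnat, Atf3, Igfbp2, Sox11, Mex3a, Ddah2 and Socs2 were among the genes lower at high Pomc share. Nnat, neuronatin, a small proteolipid of the endoplasmic reticulum, was at 7099 CPM in low and 518 in high members of the male library, a ratio of 0.0730 (0.0682 to 0.0780), and at 4018 and 204 in the female library, a ratio of 0.0508 (0.0393 to 0.0647). Sox11, a transcription factor of progenitors and young neurons, was at 359 and 84.6 CPM in low and high male members and at 415 and 97.6 in the female members. Of the stem cell list Aldoc and Sox2 were at least 2-fold lower at high Pomc share. Immediate early genes also differed, with 4 of 11 counted genes lower (Atf3, Ier2, Jun and Zfp36) and none higher.

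Levels were also taken in finer steps of Pomc share. The steps hold different barcodes of the same age, so an order of change in time was not tested. Pcsk2 in CPM without Pomc was at 104, 620, 1630, 2432 and 2524 in male members with Pomc shares of 2 to 5%, 5 to 10%, 10 to 20%, 20 to 30% and above. In the female members it was at 392, 1318, 3622, 3866 and 4352. In the lowest male step Pcsk2 rested on 13 UMIs in 3 of 9 barcodes (limits 55.1 to 177). In the lowest female step it had 95 UMIs in 15 of 17 barcodes. The 3 male members with Pomc between 2 and 3% had 0 Pcsk2 UMIs, and the 5 female ones had 11. Gal stayed at 19.9 or less up to a Pomc share of 10%, was at 97.8 and 97.9 from 10 to 20%, and at 1004 and 759 from 20 to 30%. Pam stayed between 37.1 and 68.0 below 10% and reached 305 and 481 from 10 to 20%. Sox2 was at 279 and 248 CPM in the lowest step and at 52.5 and 30.4 in the highest.

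Pax7 and Tbx19 were not higher at high Pomc share. Pax7, which is part of the rule, lay between 183 and 314 CPM in all 5 steps of the male and between 167 and 330 in those of the female library. Tbx19 lay between 51.0 and 119.5 in the male library and between 56.0 and 116 in the female one, and its highest values were in steps under 10%. Esm1, the leading gene of the members, lay between 165 and 365 CPM in all 10 groups. The lowest steps hold few barcodes, 9 male and 17 female, and the highest female step holds 8.

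**Figure D4:**
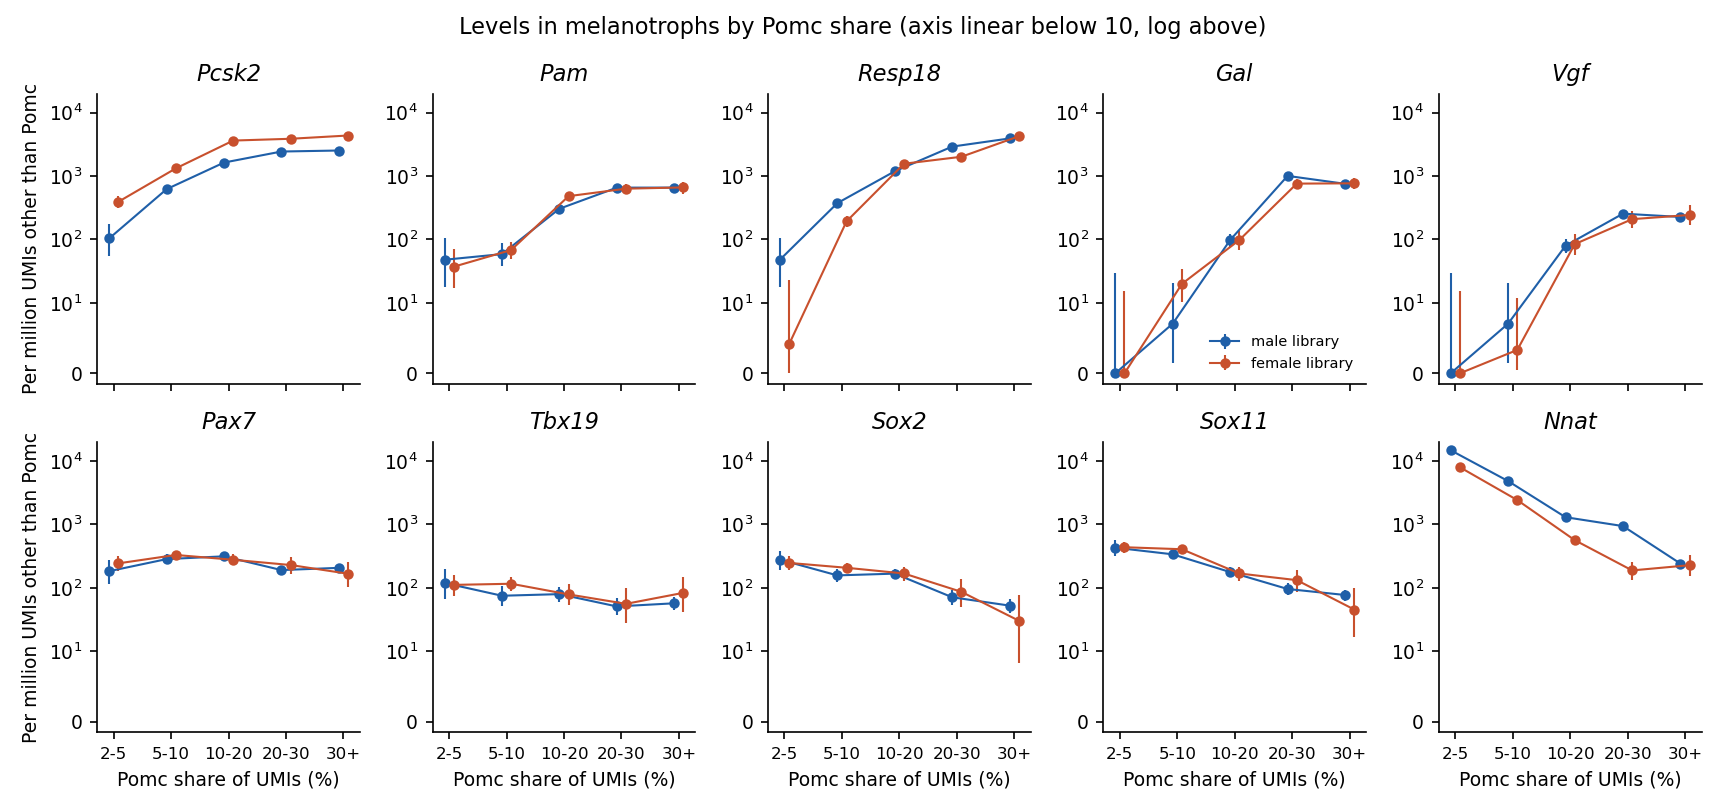
Level (CPM without Pomc) of 10 genes in melanotrophs grouped by Pomc share of UMIs (percent), with 95% counting limits for the male (blue) and female (orange) library and an axis that is linear below 10 and logarithmic above. Pcsk2, Pam, Resp18, Gal and Vgf are higher and Sox2, Sox11 and Nnat lower at high Pomc share in both libraries. Pax7 and Tbx19 are no higher in the highest step than from 5 to 10%.

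Proliferation genes were found in a small set of members. With 4 or more of 8 proliferation markers required, 20 male (10.1%) and 2 female members (2%) passed. In the male library 18 of the 20 had Pomc at 20% or more and none under 10%, and their median Pomc share was 29.6% at a median depth of 38632 UMIs. Both female barcodes had Pomc between 10 and 20%. Pcsk2 was at 1319 CPM in the 20 male barcodes and 1484 in the other male members. Scrublet, a doublet score, placed 3 of the 20 among the highest 894 scores of the male library. Deeper barcodes pass such a count more easily. After thinning to 5000 UMIs, 2 or more of the markers were seen in 9.55% of the male and 3.00% of the female members, against 21.2% and 16.6% of Sox2 barcodes and 10.7% and 5.43% of collagen barcodes, so the thinned share of all members was not above that of collagen barcodes. In male members it was 14.9% (8.56 to 23.3) with Pomc at 20% or more and 2.56% (0.0649 to 13.5) under 10%.

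Male and female members were compared over the 2846 genes at 50 CPM or more in 1 library and with 100 or more UMIs in both together. At least 2-fold higher in the male members were 25 genes (0.878%) and in the female members 34 (1.19%), and the latter include Xist. The split turned to 39 and 15 of the same genes in CPM without Pomc, which takes out the larger Pomc share of the male UMIs, to 51 and 19 of the 3399 genes counted on that scale, and to 39 and 18 with a median of ratios. The 5 largest ratios outside Xist and Y-linked genes were those of Crisp1, Hist1h2ap, Ptn, Pclaf and Gstp1 on the male side and of AC160336.1, Gm26735, Csnk2a1, AY036118 and Gadd45b on the female side. Hist1h2ap, a replication-dependent histone, and Pclaf, a PCNA-associated factor, were 5.4-fold and 3.75-fold higher in the male members, next to the 20 and 2 barcodes with proliferation markers, and the part of these barcodes was not tested. In CPM without Pomc, Pclaf was 0.645-fold (0.440 to 0.951) in male against female members with Pomc from 10 to 20% and Hist1h2ap 1.29-fold (1.07 to 1.55), and at 20% or more the female members held only 2 and 1 UMIs of them. Gadd45b, a stress-response gene, was 0.708-fold (0.573 to 0.872) and 0.628-fold (0.432 to 0.918) in the ranges under 20% but 2.39-fold (1.27 to 5.09) at 20% or more. Gm26735 was 0.569-fold (0.377 to 0.842) under 10%, and its limits include 1 in the other 2 ranges.

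Several male to female ratios depended on the Pomc share, and all of those that follow are taken in CPM without Pomc. Nnat was 0.734-fold (0.704 to 0.765) in all male against all female members. In members with Pomc under 10%, from 10 to 20% and at 20% or more it was 1.77-fold (1.69 to 1.85), 2.30-fold (1.98 to 2.69) and 2.54-fold (1.98 to 3.30). The pooled ratio thus pointed the other way from all 3 ranges. All other barcodes held Nnat at 6430.5 (male) and 2642 (female) CPM. Gal was 2.88-fold (2.55 to 3.26) higher over all male members, and its limits included 1 in each range, with 0.383 (0.0694 to 1.42) under 10%, limits of 0.660 to 1.54 from 10 to 20% and 1.12 (0.979 to 1.28) at 20% or more. Sox2 was 0.591-fold (0.502 to 0.695) over all members and between 0.845 and 0.995 within the ranges, where the limits of each include 1. Pcsk2 was lower in the male members in each range, at 0.477 (0.416 to 0.547), 0.450 (0.416 to 0.487) and 0.613 (0.577 to 0.651), and at 0.861 (0.827 to 0.897) over all members.

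Gstp1, a glutathione transferase, was 4.34-fold (3.18 to 6.06) higher in the male members on this scale and between 2.78-fold and 3.75-fold higher within the ranges of Pomc share. Csnk2a1, a protein kinase subunit, was 0.425-fold (0.346 to 0.522) and between 0.372 and 0.521 within the ranges. Both genes differed the same way outside the melanotrophs, with Gstp1 at 96.3 and 28.9 CPM and Csnk2a1 at 56.5 and 109 in all other male and female barcodes. AC160336.1 and AY036118 likewise were at 76.9 and 190.0 and at 44.7 and 99.7 CPM in the other barcodes. Crisp1 was at 53.8 CPM (male) and 7.75 (female) in the members and 0.415 and 0.0164 in the other barcodes. Cga, which the rule limits, was at 44.7 (male) and 6.64 (female) CPM in the members. Collagen barcodes, which had no limit on Cga, held 320.1 and 19.7. The part of free RNA in the difference between the members was not tested.

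**Figure D5:**
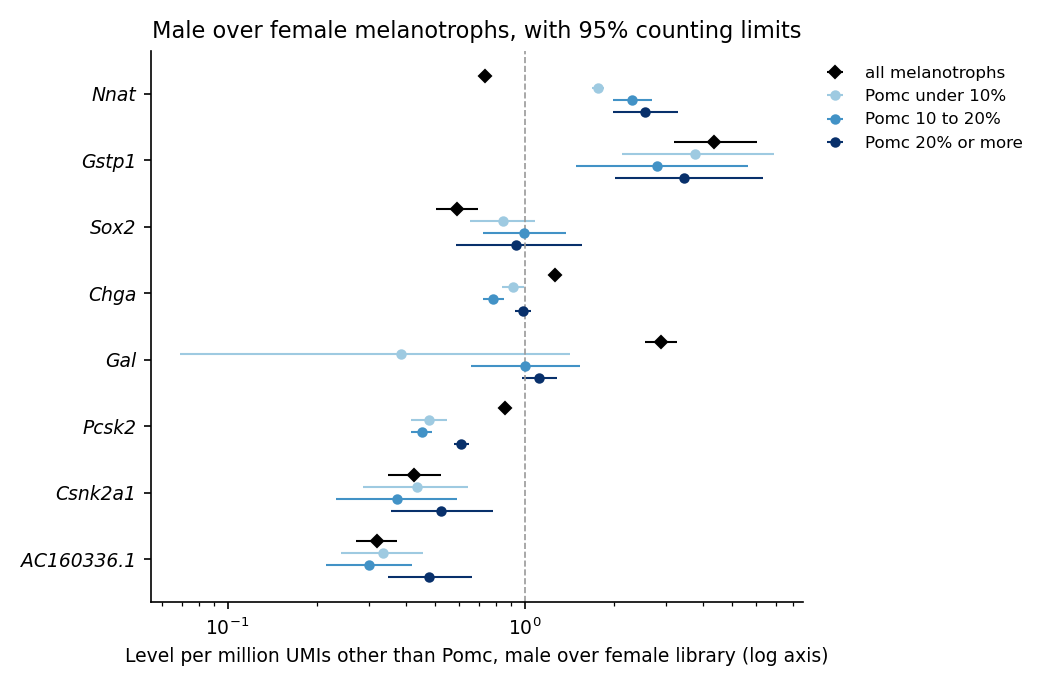
Level in CPM without Pomc in male over female melanotrophs for 8 genes on a log axis, over all members (black diamonds) and within 3 ranges of Pomc share (blue points), with 95% counting limits and a dashed line at equal levels. Nnat lies under 1 over all members and above 1 in each range, Gstp1 above 1 and Csnk2a1, AC160336.1 and Pcsk2 under 1 throughout, and Sox2 near 1 within the ranges.

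Pax7 UMIs also occurred in a few Sox2 barcodes outside the members. Of the 4752 male and 4572 female Sox2 barcodes with Pomc under 2% that met the limits on Pou1f1, Cga and collagen, 32 (0.673%) and 55 (1.20%) had a Pax7 UMI. In these, Pomc stood at 851 (766 to 943) and 2988 (2860 to 3119) CPM, against 179 and 66.5 in Sox2 barcodes with neither Pax7 nor Oacyl UMIs. Pcsk2 stood at 78.9 (54.6 to 110) and 178 (148 to 213) CPM against 1.41 and 1.34. Tbx19 had 1 and 16 UMIs. Pomc made up 0.2% of UMIs or more in only 2 of the 32 male and 11 of the 55 female barcodes. The summed levels can thus rest on few barcodes, and the part of barcodes just under the Pomc limit of 2% was not tested. Per 1000 Pomc UMIs the members held 0.653 (0.608 to 0.7) and 1.60 (1.46 to 1.76) Pax7 UMIs, and the Sox2 barcodes together 5.25 (4.02 to 6.73) and 23.4 (19.6 to 27.8). Pomc and Pax7 both belong to the rule, and these Sox2 barcodes were kept under 2% Pomc, so this difference follows in part from the choice. For Gal the same ratio was 1.55 and 1.12 in the members and 1.02 (0.525 to 1.77) and 1.74 (0.833 to 3.20) in the Sox2 barcodes. For Pcsk2 it was 5.53 and 13.4 in the members and 10.4 (8.64 to 12.4) and 34.0 (29.4 to 39.3) in the Sox2 barcodes. For Esm1 it was 0.747 and 1.35 in the members and 0.677 (0.292 to 1.33) and 0.174 (0.00440 to 0.968) in the Sox2 barcodes.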

How the data were processed

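Sorted Sox9iresGFP/+ pituitary cells had been captured in 2 libraries (10x Genomics), 1 male and 1 female. The authors aligned reads to mm10 with an added eGFP sequence in Cell Ranger 3.0.2 and deposited filtered tables of raw UMI counts per gene and barcode (31055 features, 10569 male and 5796 female barcodes, with 106039887 and 62897759 UMIs). The submitters' processing notes also name R 3.6.0 and Seurat 3 and 4, whose output was not used here. Near-identical genes can share reads.

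Here members were chosen by the stated limits, counts were summed over barcodes per library and class, and levels are UMIs per 1000000 UMIs of the class (CPM). Ratios carry exact conditional binomial limits, levels exact Poisson limits and shares Clopper-Pearson limits, all at 95% and for counting error only. A sum of 0 was set to 3 UMIs for ratios. A gene was called at 2-fold in both libraries, among genes at 50 CPM or more in either class in each library. Depth sets the precision: the members held 4628281 male and 1806828 female UMIs. With 1 library per sex no test and no p was computed. Scrublet in scanpy 1.11.5 scored doublets, and the highest 894 and 269 scores (0.8% per 1000 barcodes) were left out in an alternative. They include 21 male (10.6%) and 2 female members (2%), against 7.40% and 4.73% of all male and female barcodes within limits. Doublets stayed in otherwise. Members, gene lists and the genes named (20 higher and 10 lower against all others, 10 higher against other endocrine barcodes, 5 each way between sexes, listed genes by list) were chosen with earlier results of these data known. The comparisons by Pomc share, with barcodes without Pax7 and Oacyl, of barcodes with proliferation markers, and of Sox2 barcodes with Pax7 were added after seeing the data. The fold computation was tested on simulated counts. The upstream sequence and its position are from RefSeq, GRCm38.p6. A few listed genes are not reported here.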

Additional observations from a re-analysis of the deposited data

Results flagged for a closer look

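In the male library 43 barcodes outside the quality limits met every other limit of the melanotroph rule, and none did in the female library. These barcodes are in no comparison. Of the 43, 38 had fewer than 1000 genes and 8 had more than 10% mitochondrially encoded UMIs. Their median was 1535 UMIs and 760 genes, with Pomc at 14.6% of UMIs and Pcsk2 at 1246 CPM, against 1461 in the male members. Barcodes under 1000 genes made up 23.8% of the male and 3.00% of the female library. With the 43 added and all barcodes as the base, the melanotroph share was 2.29% (male) and 1.73% (female).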

How the results depend on the processing

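The main limits are 1 library per sex, free Pomc RNA, which is higher in the male library, and shallow barcodes, in which Pax7 and Oacyl can be missed. Without the limits on Pou1f1, Cga and collagen the male share was 2.93%, and no other choice moved either share beyond its limits. The count of genes higher in melanotrophs was 314 in CPM without Pomc, of which 256 were also counted in CPM. With floors of 20 and 100 CPM, 341 and 87 genes were higher and 853 and 153 lower in melanotrophs, 64 and 11 higher in male and 66 and 18 in female melanotrophs. Male and female counts were 51 and 19 in CPM without Pomc and 39 and 18 with a median of ratios. Within Pomc shares (chosen after seeing the data) of under 10%, 10 to 20% and 20% or more, 2284, 1818 and 3396 genes were counted. Higher in male members were 21 (0.919%), 11 (0.605%) and 114 (3.36%) of them, and in female members 12 (0.525%), 15 (0.825%) and 8 (0.236%). The last range holds 18 of the 20 male and 0 of the 2 female barcodes with proliferation markers, whose part was not tested. At high Pomc share, floors of 20 and 100 CPM gave 281 and 91 genes higher and 183 and 32 lower. Pomc in male Sox2 barcodes was at 1436 CPM with 500 or more genes, 1351 with 2000, 1439 under the study's filters, 927 with 3 or more Sox2 UMIs and 1102 without the highest Scrublet scores. In female Sox2 barcodes it was at 408 with at most 5% mitochondrial UMIs, 422 with 3 or more Sox2 UMIs and 466 without those scores. Thinned to 3000 UMIs, 37.4% and 12.7% of male and female Sox2 barcodes had a Pomc UMI. The log2 ratio of male to female members turned within these shares for Crisp1 (-0.97 under 10%, on 1 male and 0 female UMIs), Pclaf (-0.63 from 10 to 20%), Gm26735 (0.50 at 20% or more) and Gadd45b (1.26 at 20% or more). No alternative turned the direction of the 33 genes named against all other barcodes, and these 4 values were the only turns among the 10 genes named between sexes. Of the values of these 33 and 10 genes, 381 and 144 stayed within the main value's counting limits and 81 and 22 others moved beyond them. The cause of each change was not tested.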

Other observations

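Receptors and ion channels were mostly below the level used for counting, and their values are given as levels. In the members Gabrb1, a subunit of the GABA-A receptor, was at 22.5 (18.4 to 27.2) CPM (male) and at 18.3 (12.6 to 25.6) (female), and at 0.209 and 0.139 in Sox2 barcodes with Pomc under 2% that met the limits on Pou1f1, Cga and collagen. The sodium channel gene Scn2a was at 30.0 (25.2 to 35.5) and 12.7 (8.07 to 19.1) CPM in the members, against 0.767 and 0.885 in other endocrine barcodes. Kcnj6, a G-protein-gated potassium channel that D2-type receptors can open, was at 29.8 and 42.6, against 12.7 and 10.4. Sstr5 and Oprm1 had 0 UMIs in the members of both libraries, where 3 UMIs would be 0.648 CPM in the male and 1.66 in the female members.

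Tubb3, a tubulin gene of neurons on the list of pituicyte and neural markers, was at 139.6 (129 to 151) CPM in the male and 263 (240 to 288) in the female members, and made up most of the 149.7 and 281 that the list summed to, while Avp and Sox10 had 0 UMIs. Egfl7, from the endothelial list, was at 22.9 (18.8 to 27.7) and 13.8 (8.95 to 20.4) CPM and above the 6.87 and 6.76 of Sox2 barcodes, while Cldn5 and Tek had 0 UMIs in the members.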
